A study of Mustela putorius furo and Mus musculus with 4 samples.

Results

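The genes described here are 10 genes of canonical WNT signaling, the ligands *Wnt7a* and *Wnt7b*, the receptor *Fzd8*, the secreted modulator *Sfrp1*, the effector *Ctnnb1*, the DNA-binding factors *Lef1*, *Tcf7l1* and *Tcf7l2*, and the feedback inhibitors *Axin2* and *Nkd1*. They were chosen by name, with earlier results of these data known. All 10 were found among the 17170 genes of the mouse data and, by the same symbols, among the 22008 genes of the ferret data. Levels are unique molecular identifiers (UMIs, each standing for 1 captured transcript) summed over the cells of a class and divided by all UMIs of those cells, as CPM.

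Droplet single-cell RNA sequencing had been performed on mouse cortex at E18 and on ferret cortex at E39. The mouse samples were 1 library of hGFAP-Cre; Smo fl/fl cortex (Smo-cKO), in which Cre active in radial glia (RG) deletes the Hedgehog signal transducer *Smo*, and 1 library of littermate cortex, which the sample labels call wild type and the study calls Smo F/F without Cre. Mice were of the CD1 strain, and both genotypes received a fluorescent cell dye in the lateral ventricle at E17, after which labeled cells were sorted. The ferret cells were from the cortex of 1 untreated wild type embryo, in 2 barcode sets that could not be tied to the 2 labeled ferret samples.

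In the canonical WNT pathway a WNT ligand binds a Frizzled receptor and an LRP co-receptor, which halts the complex of AXIN, APC and GSK3 that otherwise marks β-catenin for degradation. β-catenin then enters the nucleus and joins TCF and LEF factors, which repress target genes without it and activate them with it. *Axin2* and *Nkd1* are targets that feed back on the pathway, and in the cortex WNT signals are strongest medially, near the cortical hem, while *Sfrp1* and *Fzd8* are known for their expression in cortical progenitors.

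With 1 library per genotype there were no replicates. Genotypes were therefore compared without a test, and genotype cannot be told apart from embryo, sort or preparation. All intervals are 95% intervals for counting error only. A barcode suffix was taken as control or Smo-cKO because its number of cells, 10524 or 7596, equals the number that the study states for that genotype, and every direction below would be reversed if this were wrong. *Smo* itself had 145 UMIs in RG-like cells of the control library and 4 in those of the Smo-cKO library. These were 14.7 (12.4 to 17.2) and 0.379 (0.103 to 0.970) CPM, so the transcript was nearly absent in the library taken as Smo-cKO by its cell number.

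Cells were classed by their marker UMIs. A cell took the class of which it had a UMI of the most markers, at least 3 of 8 and more than of any other class, so each class is a range of marker counts and its name carries "-like". RG-like cells were 1903 of 10498 control and 1438 of 7209 Smo-cKO cells within the study's limits, with cells holding 3 or more cycling markers kept apart (1333 and 579 cells). Their median marker count was 6 of 8 for RG, 1 for intermediate progenitor cells (IPCs) and 0 for the other classes in the control library, and 11.9% of control and 10.9% of Smo-cKO RG-like cells lay at the edge of the rule. The IPC-like class was less sharp, with 43.5% and 41.2% of its cells at the edge. Median UMIs per RG-like cell were 4704 in control and 7003 in Smo-cKO. The libraries shared 28 barcodes.

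Both WNT7 ligands were measured in the neuronal lineage, in opposite classes. *Wnt7a* (chromosome 6, 91363981 to 91411363, minus strand, GRCm38) stood at 16.2 (13.8 to 18.9) CPM in control and 17.3 (14.9 to 20.0) CPM in Smo-cKO RG-like cells, from 160 and 183 UMIs. IPC-like cells had 1.08 and 1.78 CPM of *Wnt7a* and upper layer pyramidal neuron (PyN)-like cells had 0.918 and 1.48 CPM. On the log2 scale *Wnt7a* was 4.14 (3.06 to 5.48) higher in RG-like than in upper layer PyN-like cells of the control library and 3.55 (2.74 to 4.48) higher in the Smo-cKO library. Inhibitory-like cells were at 21.1 (10.5 to 37.8) and 22.6 (13.6 to 35.3) CPM, intervals that overlap those of RG-like cells.

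*Wnt7b* (chromosome 15, 85535437 to 85582473, minus strand) had the reverse order. It was at 11.0 and 17.05 CPM in RG-like cells, 34.2 and 38.8 CPM in IPC-like cells, and 56.8 and 65.9 CPM in upper layer PyN-like cells of control and Smo-cKO. The intervals of these 3 classes did not overlap within either library. Deep layer PyN-like cells, 97 and 92 in number, had 53.9 (33.3 to 82.3) and 34.2 (19.1 to 56.3) CPM. Vascular-like cells of both libraries had no *Wnt7b* UMI, and microglia-like cells had 0 and 1.

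The receptor, the modulator and *Tcf7l1* were highest in RG-like cells among the neuronal lineage classes. *Fzd8*, a Frizzled receptor, was at 49.9 CPM in control and 39.1 CPM in Smo-cKO RG-like cells, against 12.2 and 10.2 CPM in IPC-like cells and 5.51 and 4.10 CPM in upper layer PyN-like cells. *Sfrp1* (chromosome 8, 23411502 to 23449632, plus strand), a secreted Frizzled-related protein that binds WNT ligands, was found in 87.2% of control and 91.9% of Smo-cKO RG-like cells. Its level was 536 and 654 CPM there, 174 and 214 CPM in IPC-like cells and 129 and 143 CPM in upper layer PyN-like cells. *Tcf7l1* (chromosome 6, 72626378 to 72789254, minus strand), a TCF factor known mostly as a repressor, had few UMIs outside the RG-like classes. It had 195 and 185 UMIs in RG-like cells but 5 and 2 in IPC-like cells and 1 and 3 in upper layer PyN-like cells.

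*Tcf7l2* (chromosome 19, 55741820 to 55933654, plus strand), a TCF factor of many tissues, fell in between. It had 67.1 and 59.0 CPM in RG-like cells, 17.7 and 15.1 CPM in IPC-like cells and 36.3 and 32.7 CPM in upper layer PyN-like cells, so its level in PyN-like cells lay above that in IPC-like cells in both libraries. Transcripts of *Ctnnb1* (chromosome 9, 120929216 to 120960507, plus strand), which encodes β-catenin, were found in every class of at least 50 control cells, from 103 CPM in microglia-like cells to 381 CPM in vascular-like cells. β-catenin is set mainly by protein stability, which these data do not measure.

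The genes that report or feed back on the pathway were highest in vascular-like cells, a class of 50 control and 31 Smo-cKO cells. *Lef1* (chromosome 3, 131110471 to 131224356, plus strand) was at 143 (106 to 188) and 138 (96.2 to 192) CPM there, against 3.03 (2.05 to 4.33) and 10.6 (8.73 to 12.8) CPM in RG-like cells. *Nkd1* (chromosome 8, 88521354 to 88594884, plus strand), which binds Dishevelled, was at 58.8 and 63.1 CPM in vascular-like cells and at 5.96 and 5.78 CPM in RG-like cells. *Axin2* (chromosome 11, 108920349 to 108950783, plus strand), a scaffold of the degradation complex, was at 39.2 (21.4 to 65.8) and 31.6 (13.6 to 62.2) CPM in vascular-like cells and 17.9 (15.4 to 20.7) and 19.6 (17.02 to 22.5) CPM in RG-like cells. For *Axin2* the intervals of these classes were separate in control and overlapped in Smo-cKO. As a class that should lack these genes, microglia-like cells, with medians of 8101 and 7582 UMIs per cell, had no UMI of *Lef1* or *Nkd1* in 90 control and 165 Smo-cKO cells, and 1 and 0 UMIs of *Axin2*.

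**Figure D1:**
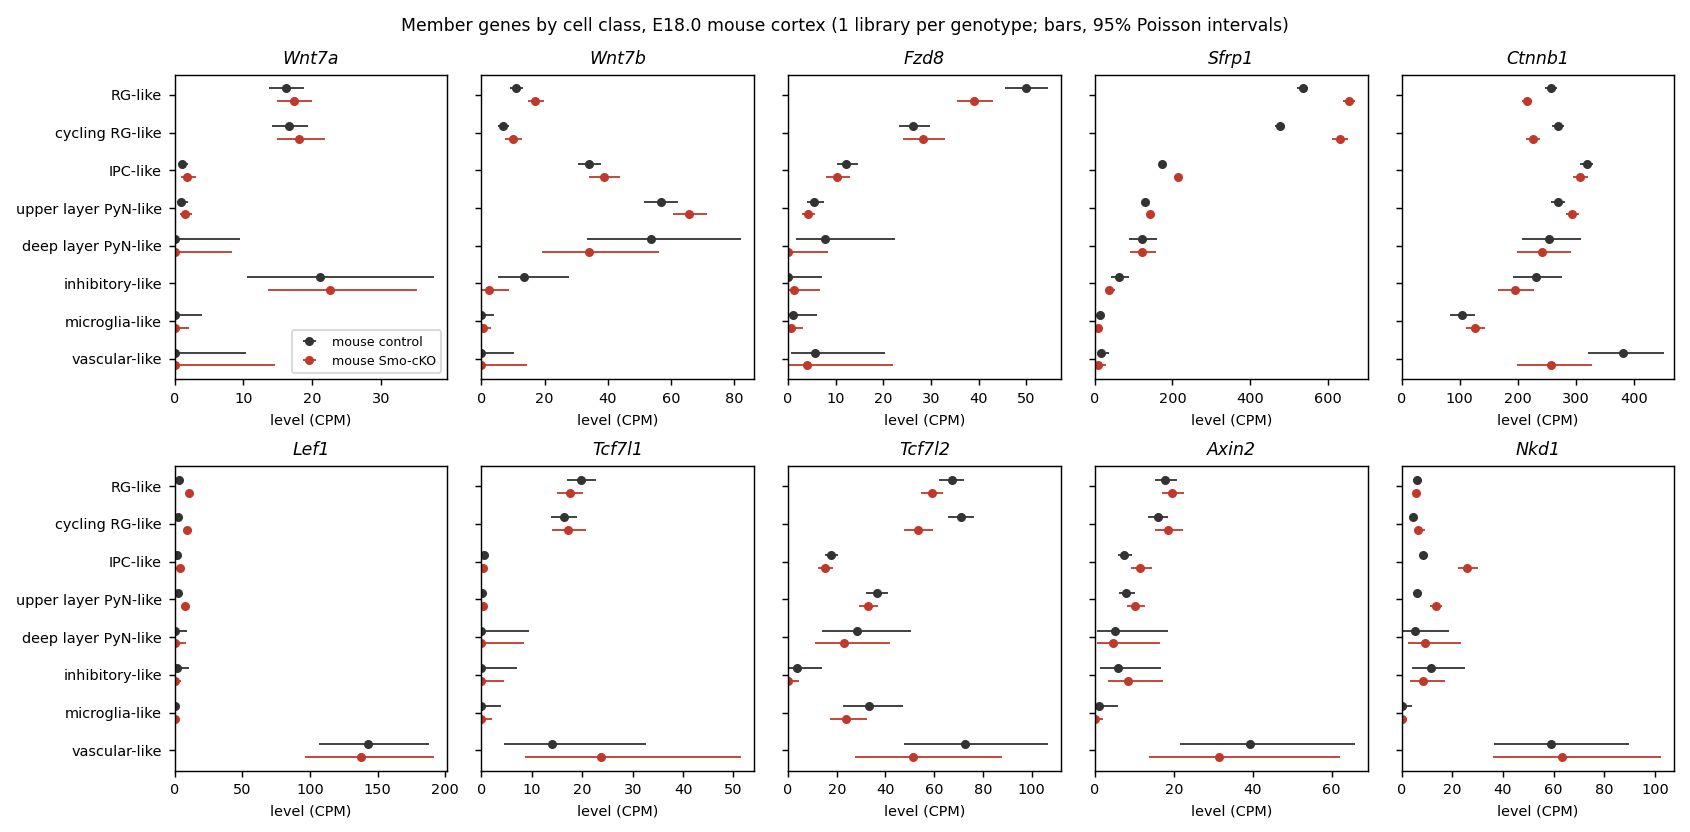
Level of each gene in CPM (horizontal axes, linear from 0) in 8 cell classes of the control (dark) and Smo-cKO (red) mouse libraries, with points for the summed UMIs of 1 library and bars for 95% Poisson intervals. *Fzd8*, *Sfrp1* and *Tcf7l1* lie highest in RG-like classes among neuronal lineage cells, and *Wnt7a* in inhibitory-like and RG-like classes, with overlapping intervals. *Wnt7b* lies highest in PyN-like cells, and *Lef1*, *Axin2* and *Nkd1* in vascular-like cells.

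Between the libraries, *Lef1* differed most among the 10 genes in RG-like cells. It had 30 UMIs in 28 of 1903 control cells and 112 UMIs in 105 of 1438 Smo-cKO cells, a CPM ratio of 3.50 (2.32 to 5.42). *Wnt7b* was higher by 1.55 (1.21 to 1.98), from 109 to 180 UMIs, just past the 1.5-fold that was used as the line. *Lef1* and *Wnt7b* were 2 of 10 genes (20.0%) at least 1.5-fold higher in Smo-cKO, where 8.78% of the 12477 genes with at least 20 UMIs were, and 0 of 10 were at least 1.5-fold lower, where 7.45% of all tested genes were. The study had already named *Lef1*, *Wnt7b* and *Axin2* as upregulated in RG cells of this same pair of libraries. The count of 2 of 10 is therefore not independent of that report. In the study's own supplement the change of *Axin2* was small and was not significant after adjustment. The median log2 ratio of the 10 genes was 0.03 and that of all tested genes was -0.01.

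The *Wnt7b* ratio depended on how RG-like cells were drawn. Its log2 ratio was 0.63 (0.28 to 0.99) as given above, 0.57 when 4 markers were required and 0.58 when a lead of 2 markers was required, both under 1.5-fold, and 0.41 (-0.04 to 0.87) without the cells that held a vascular marker. The log2 ratio of *Lef1* was 1.81 (1.21 to 2.44) and lay between 1.81 and 2.13 under all 10 alternatives that were run. Without the cells that held a UMI of the medial cortex list (*Zic* genes, *Prox1*, *Dmrt3* and others) it was 2.00 (1.22 to 2.86), from 17 and 67 UMIs.

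Ligand, receptor and effector genes moved by less. *Wnt7a* had a ratio of 1.07 (0.862 to 1.33). *Fzd8* had a ratio of 0.783 (0.686 to 0.894), from 494 and 413 UMIs, and of 1.08 (0.881 to 1.31) in cycling RG-like cells. The ratio of *Sfrp1* was 1.22 (1.18 to 1.27) in RG-like cells, 1.32 (1.27 to 1.38) in cycling RG-like cells and 1.23 (1.15 to 1.32) in IPC-like cells. *Ctnnb1* had a ratio of 0.839 (0.793 to 0.888) in RG-like and 0.843 (0.789 to 0.901) in cycling RG-like cells, but 1.09 (1.03 to 1.15) in upper layer PyN-like cells. Its intervals thus lay below 1 in both RG-like classes and above 1 in upper layer neurons, all within 1.5-fold.

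Among the factors and feedback genes, only *Lef1* passed the line in RG-like cells. *Tcf7l1* had a ratio of 0.889 (0.723 to 1.09) and *Tcf7l2* of 0.879 (0.787 to 0.982). *Axin2* was at 177 UMIs in control and 207 in Smo-cKO, a ratio of 1.10 (0.892 to 1.35), and *Nkd1* at 59 and 61 UMIs, a ratio of 0.969 (0.666 to 1.41). Both intervals end below 2.32, where that of *Lef1* begins.

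The share of RG-like cells with a UMI was read at equal depth, since Smo-cKO cells were deeper. A *Lef1* UMI was found in 1.47% of control and 7.30% of Smo-cKO cells, 5.83 percentage points apart (4.44 to 7.36). The expected shares at 2900 UMIs per cell were 0.812% and 2.86%. For *Wnt7b* the shares were 4.89% and 9.46%, and 2.75% and 4.07% at equal depth. For *Axin2* the shares of 8.78% and 12.1% became 5.09% and 5.35%. The shares of *Ctnnb1* were 67.0% and 71.4% as counted but 50.5% and 44.7% at equal depth, so the order of the libraries turned.

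Markers of other cells differed between the libraries inside the RG-like class. The summed level of the 8 microglia markers was 4.35 CPM in control and 16.8 CPM in Smo-cKO, that of the 8 PyN markers 297 and 200 CPM, and that of the 8 glial lineage markers 178 and 116 CPM, while the 8 vascular markers were at 60.7 and 55.1 CPM. The part of the PyN and glial lineage markers in the ratios was not tested. *P2ry12* of the microglia list was at 0 in control, and *Cdh5* and *Kcnj8* of the vascular list were at 0 in Smo-cKO. Microglia-like cells had no *Lef1* UMI, and without RG-like cells that held a microglia marker the log2 ratio of *Lef1* was 1.81 (1.21 to 2.45). The medial cortex list was at 63.1 CPM in control and 56.3 CPM in Smo-cKO, and its members went different ways: *Dmrt3*, a factor of medial cortical progenitors, had 6 and 54 UMIs (ratio 8.43, 3.63 to 24.0), *Zic4* had 74 and 36 UMIs (0.456, 0.297 to 0.688), and *Zic1* had 188 and 135 UMIs (0.673, 0.535 to 0.844).

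In IPC-like cells, the progenitors that follow RG, *Nkd1* had the largest ratio of the 9 genes with at least 20 UMIs. It had 86 UMIs in 2272 control IPC-like cells and 175 UMIs in 1251 Smo-cKO IPC-like cells, 8.42 (6.74 to 10.4) against 25.9 (22.2 to 30.0) CPM, a ratio of 3.08 (2.36 to 4.03). In upper layer PyN-like cells it was at 6.03 (4.42 to 8.05) and 13.5 (11.1 to 16.1) CPM, a ratio of 2.23 (1.57 to 3.21), from 46 and 118 UMIs. The ratio of *Nkd1* in IPC-like cells was 3.17 (1.99 to 5.05) times its ratio in RG-like cells, and that in upper layer PyN-like cells 2.29 (1.36 to 3.89) times. In vascular-like cells *Nkd1* had a ratio of 1.07 (0.524 to 2.16), and in inhibitory-like cells it had 6 and 7 UMIs. The 8 vascular markers, of the class where *Nkd1* was highest, were at 7.05 and 6.96 CPM in IPC-like cells and at 2.89 and 4.22 CPM in upper layer PyN-like cells. The 8 microglia markers were at 11.5 and 21.8 CPM in IPC-like cells, and microglia-like cells had no *Nkd1* UMI. The 8 glial lineage markers were at 51.2 and 73.0 CPM in IPC-like cells and at 25.2 and 17.6 CPM in upper layer PyN-like cells. Glial lineage-like cells had *Nkd1* at 18.6 (7.48 to 38.3) and 25.6 (8.32 to 59.8) CPM, and the part of the glial lineage markers in the *Nkd1* ratios was not tested.

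*Axin2* was at 7.44 (5.87 to 9.32) CPM in control and 11.5 (9.13 to 14.4) CPM in Smo-cKO IPC-like cells, a ratio of 1.55 (1.12 to 2.16). Against its ratio in RG-like cells that is 1.42 (0.957 to 2.10), an interval that includes 1. *Lef1* had 18 and 27 UMIs in IPC-like cells, a ratio of 2.27 (1.204 to 4.37), and 20 and 64 UMIs in upper layer PyN-like cells, a ratio of 2.78 (1.66 to 4.85). With a lead of 2 markers the log2 ratio in IPC-like cells was 0.79 (-0.38 to 1.98), still past 1.5-fold but with an interval that includes 0. In upper layer PyN-like cells of at least 2900 UMIs thinned to that depth it was 0.53 (-0.51 to 1.63), under 1.5-fold, and fewer cells and less depth cannot be told apart there. In cycling RG-like cells *Lef1* had 25 and 57 UMIs, a ratio of 3.68 (2.26 to 6.15), and in vascular-like cells a ratio of 0.967 (0.610 to 1.52).

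By count, 4 of the 9 genes with at least 20 UMIs in IPC-like cells were at least 1.5-fold higher in Smo-cKO (*Wnt7a*, *Lef1*, *Axin2* and *Nkd1*), 3 of them with an interval that excludes 1, where 8.54% of all tested genes were, and 0 of 9 were lower, where 4.75% were. *Wnt7a* was the gene whose interval included 1, with 11 and 12 UMIs. In upper layer PyN-like cells 3 of 9 were higher (*Wnt7a*, *Lef1* and *Nkd1*), 2 of them with an interval that excludes 1, where 5.93% of all tested genes were, and 0 of 9 were lower, where 4.46% were. *Tcf7l1* had too few UMIs in both classes. The median log2 ratio was 0.30 over the genes in IPC-like cells and 0.21 in upper layer PyN-like cells, beside 0.05 and 0.03 over all tested genes. These comparisons share the same pair of libraries.

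**Figure D2:**
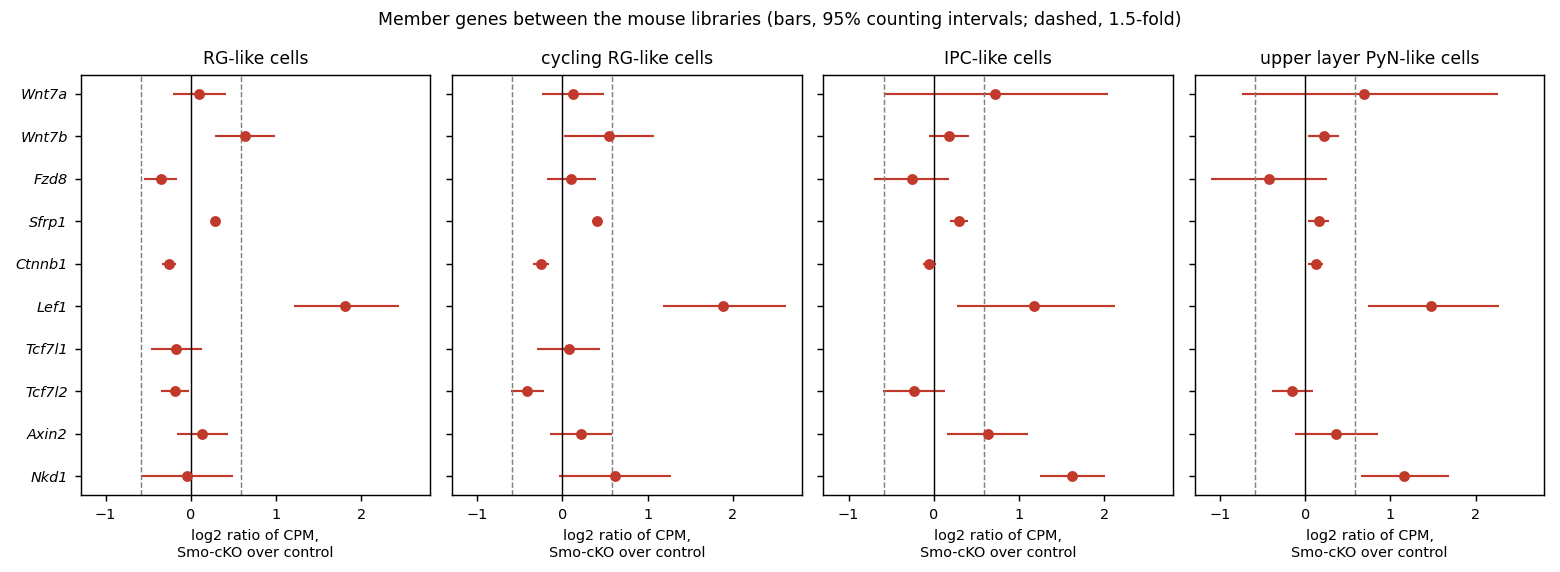
Log2 ratio of CPM, Smo-cKO over control, of the 10 genes in 4 cell classes (1 library per genotype), with bars for 95% counting intervals and dashed lines at 1.5-fold. *Lef1* lies to the right of the line in each panel, while *Nkd1* is near 0 in RG-like cells (-0.05) and at 1.62 in IPC-like cells. *Tcf7l1* is not drawn where both libraries together had under 20 UMIs.

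A list of 65 further WNT pathway genes was read in the same way, of which 58 were in the mouse data and 44 had at least 20 UMIs in RG-like cells. At least 1.5-fold higher in Smo-cKO were 7 of 44 (15.9%), each with an interval that excludes 1, beside 8.78% of all tested genes. At least 1.5-fold lower were 3 of 44 (6.82%), 2 of them with such an interval, which is below the 7.45% of all tested genes. The median log2 ratio was 0.01 over those of the 44 genes with a finite ratio, which leaves out *Notum*, with 0 UMIs in control.

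Among ligands and agonists, *Rspo1*, an R-spondin that strengthens WNT signals at the receptor, had 12 UMIs in control and 49 in Smo-cKO, a ratio of 3.83 (2.01 to 7.90). The ligands *Wnt5a* and *Wnt5b* had ratios of 0.845 (0.609 to 1.17) and 1.09 (0.808 to 1.49). For ligand secretion, *Wls*, which carries WNT proteins to the cell surface, had 47 and 90 UMIs, a ratio of 1.79 (1.25 to 2.61), and *Porcn*, which acylates them, had a ratio of 0.924 (0.660 to 1.29). Of the receptors, *Fzd9* had 70 and 170 UMIs, a ratio of 2.28 (1.71 to 3.05). The more abundant *Fzd2* and *Fzd3* had ratios of 1.25 (1.17 to 1.34) and 0.981 (0.897 to 1.07), and *Fzd6* was the third gene past the line downward, at 0.625 with an interval that includes 1.

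Extracellular inhibitors went both ways. *Notum*, an enzyme that removes the lipid from WNT ligands and a target of the pathway in many tissues, had 0 UMIs in control and 40 UMIs in 34 Smo-cKO RG-like cells, at least 12.5-fold higher when control is set at a floor of 3 counts over the class. The lower end of the counting interval of its ratio was 9.70. *Draxin*, an axon guidance protein that antagonizes WNT, had 774 and 516 UMIs, a ratio of 0.625 (0.558 to 0.699), and *Sfrp5* had 26 and 10 UMIs, a ratio of 0.360 (0.155 to 0.772). *Sfrp2* had a ratio of 0.979 (0.860 to 1.11). None of the 9 tested genes of the degradation complex and cytoplasm passed the line, among them *Gsk3b* with 0.919 (0.878 to 0.962) and *Csnk1a1* with 1.04 (0.989 to 1.10).

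Of the nuclear genes, *Tcf7*, the remaining TCF factor, had 12 and 41 UMIs, a ratio of 3.20 (1.65 to 6.69), while *Bcl9*, a β-catenin cofactor, had 0.885 (0.784 to 0.998) and the co-repressor *Tle1* had 1.28 (1.15 to 1.43). Of the known targets, *Tnfrsf19* had 334 and 652 UMIs, a ratio of 1.83 (1.60 to 2.09), *Myc* 47 and 76 UMIs, a ratio of 1.51 (1.04 to 2.23), and *Ccnd2* a ratio of 1.18 (1.14 to 1.22). In IPC-like cells 9 of 36 tested genes of the list (25.0%) were at least 1.5-fold higher and 1 (2.78%) lower, beside 8.54% and 4.75% of all tested genes. Those with an interval that excludes 1 were *Wnt5a* (196 and 282 UMIs, 2.17, 1.81 to 2.62), *Tnfrsf19* (11 and 35 UMIs, 4.81, 2.39 to 10.5) and *Reck* upward and *Ccnd2* downward. In upper layer PyN-like cells 4 of 38 (10.5%) were higher and 0 lower, beside 5.93% and 4.46% of all tested genes, and *Wnt5a* was the 1 with an interval that excludes 1, with 63 and 198 UMIs and a ratio of 2.73 (2.05 to 3.69).

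**Figure D3:**
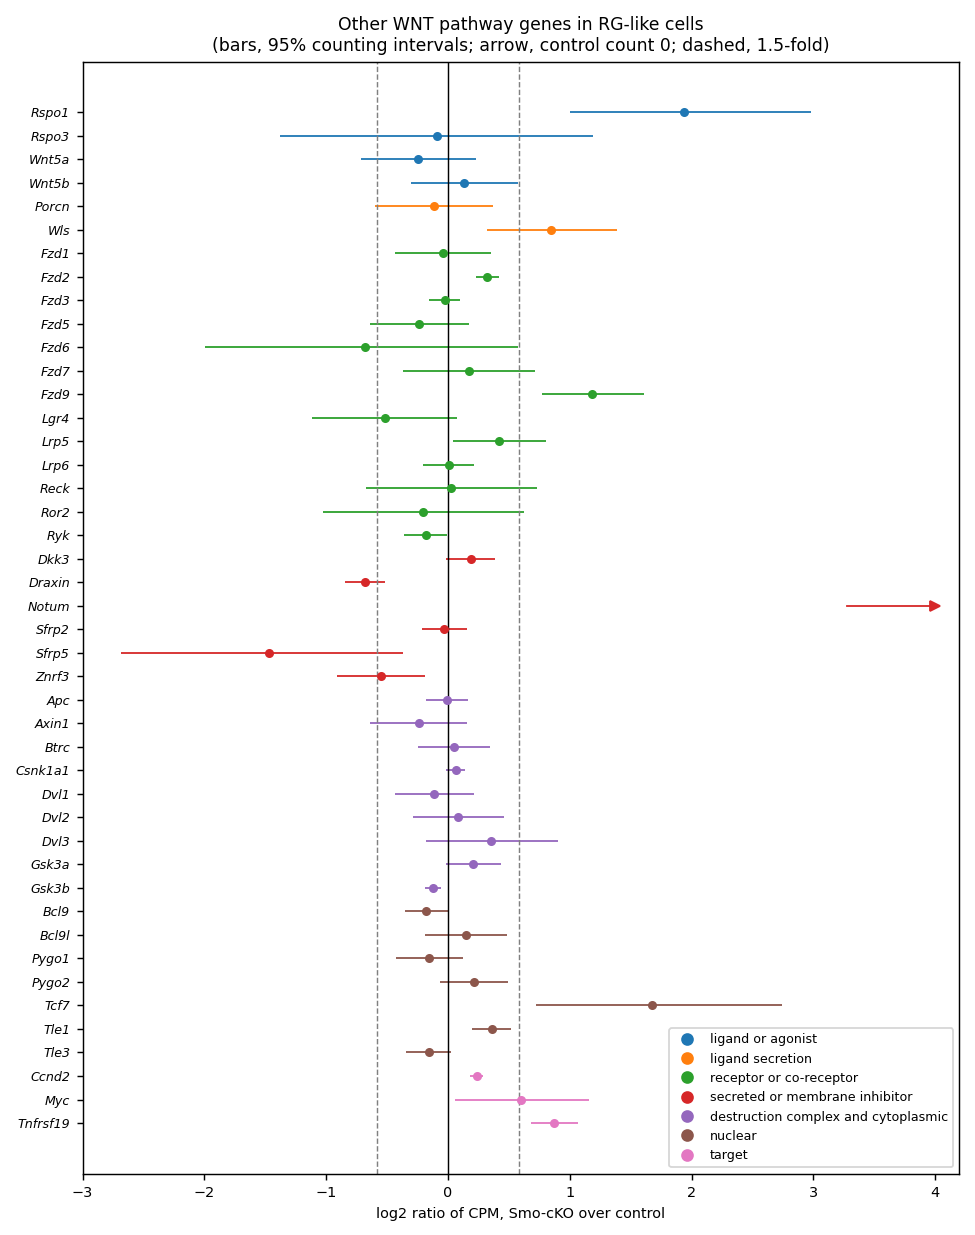
Log2 ratio of CPM, Smo-cKO over control, in RG-like cells for the 44 further WNT pathway genes with at least 20 UMIs, colored by role, with bars for 95% counting intervals and dashed lines at 1.5-fold. *Notum* had 0 UMIs in control, so it is drawn as an arrow that starts at the lower end of the interval of its ratio, 9.70-fold. *Rspo1*, *Tcf7* and *Fzd9* lie farthest to the right of the genes with a finite ratio and *Sfrp5* farthest to the left.

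RG-like cells with a *Lef1* UMI were compared with those without one inside each library. The medial cortex list was richer in cells with *Lef1*, by 3.37 (2.35 to 4.71) in control, from 28 cells, and by 1.59 (1.24 to 2.03) in Smo-cKO, from 105 cells. RG markers were less abundant in cells with *Lef1*, at 0.646 (0.592 to 0.703) in control and 0.886 (0.858 to 0.913) in Smo-cKO, and IPC markers more abundant, at 1.40 (1.19 to 1.63) and 1.28 (1.19 to 1.39). The vascular list, of the class where *Lef1* was highest, had ratios below 1 with intervals that include 1. They were 0.541 (0.198 to 1.18) in control, from 6 UMIs in the cells with *Lef1*, and 0.738 (0.514 to 1.03) in Smo-cKO. The part of vascular transcripts in the *Lef1* counts of RG-like cells was not tested. *Axin2* was richer in cells with *Lef1* by 2.53 (1.08 to 5.11) in control and had a ratio of 1.49 (0.941 to 2.27) in Smo-cKO. Cells with *Lef1* had more UMIs, with medians of 6239 against 4699 in control and 8183 against 6891 in Smo-cKO, and the part of depth was not tested beyond the scaling to CPM. *Notum* was found with *Lef1* in 5 of its 34 Smo-cKO cells, where 105 of all 1438 Smo-cKO RG-like cells held *Lef1*. Counted in the same way were *Rspo1* (9 of 40 cells), *Tcf7* (3 of 40) and *Wls* (5 of 81). *Fzd9* had 15 of 139 and *Tnfrsf19* 44 of 446.

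All genes of this paragraph were picked for high control ratios, so their control ratios are selected to be large and those in Smo-cKO are not. Of the 5 genes richest in control RG-like cells with *Lef1*, *Ucp2* was also richer in Smo-cKO. In those 28 control cells the UMIs were 47 for *Olig1*, 23 for *Junb*, 550 for *Hba-a1*, 791 for *Hbb-bs* and 21 for *Ucp2*. The intervals take UMIs as independent, and how these were spread over the cells was not tested. *Olig1* was richer by 10.6 (7.59 to 14.6) in control and had a ratio of 0.623 (0.245 to 1.32) in Smo-cKO, and *Junb* had 5.50 and 1.19 (0.818 to 1.68). The globins *Hba-a1* and *Hbb-bs* had 5.32 and 5.29 in control and 0.101 and 0.190 in Smo-cKO, and *Ucp2* had 3.99 and 1.81 (1.21 to 2.63). Cells with an *Axin2* UMI numbered 167 in control and 174 in Smo-cKO. In control the leading genes rested on few UMIs in the cells with *Axin2*. *Lepr* had 97.5 (24.1 to 853) from 23 UMIs, *Higd1b* 15.4 (8.08 to 30.3) from 29 and *Vtn* 6.14 (3.33 to 11.1) from 21. *Olig1* had 4.33 (3.35 to 5.57) from 96 UMIs and *Ifi27l2a* 3.27 (1.91 to 5.44) from 22. In Smo-cKO *Ifi27l2a* had a ratio of 4.15 (3.21 to 5.35), *Higd1b* of 60.3 (8.58 to 2617) from 10 UMIs in the cells with *Axin2*, and *Olig1* of 0.346 (0.136 to 0.735). *Lepr* and *Vtn* had 1 and 2 UMIs in those cells. *Higd1b* and *Vtn* are genes of pericytes. The whole vascular list was richer in cells with *Axin2* by 1.72 (1.37 to 2.13) in control and had a ratio of 1.18 (0.934 to 1.47) in Smo-cKO. Without the cells that held a vascular marker the log2 ratio of *Axin2* between the libraries was 0.11 (-0.24 to 0.46), beside 0.13 over all RG-like cells.

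Over the 9 classes with at least 50 cells in both libraries, 18 points from 2 libraries, the genes whose log2 levels followed a member most closely were named for members with a mean of at least 20 CPM. *Sfrp1* went with *Acot1* (Pearson r 0.981), *Gli3* (0.980) and *Fermt2* (0.978), and *Wnt7b* with *Zfhx4* (0.946), *Zbtb18* (0.944) and *Cib2* (0.942). *Ctnnb1* went with *Zfp664* (0.939), *Nabp2* (0.936) and *Polr2c* (0.922), and *Tcf7l2* with *Itgb1* (0.869), *Cpne3* (0.865) and *Scd2* (0.845). The points share libraries and depth, so these are descriptions.

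The ferret cortex at E39 gave the 10 genes in a second species, with 177 and 307 RG-like cells in the 2 barcode sets of the 1 embryo, 45.2% and 32.6% of them at the edge of the rule. *FZD8* was at 94.5 (70.4 to 124) and 78.0 (63.3 to 95.2) CPM in RG-like cells and at 1.99 and 0.986 CPM in upper layer PyN-like cells. *SFRP1* was at 443 (389 to 503) and 406 (371 to 443) CPM in RG-like cells, 132 and 112 CPM in IPC-like cells, and 46.7 and 30.7 CPM in upper layer PyN-like cells. *TCF7L1* was at 46.3 and 45.8 CPM in RG-like cells and at 3.17 and 2.41 CPM in upper layer PyN-like cells. These 3 genes thus had the RG-high order seen in mouse, in both sets.

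*WNT7A* was at 40.8 (25.6 to 61.7) and 52.3 (40.3 to 66.6) CPM in ferret RG-like cells, 9.60 and 13.4 CPM in upper layer PyN-like cells, and 73.4 (39.1 to 125) and 64.8 (55.4 to 75.3) CPM in inhibitory-like cells. The high classes were again RG-like and inhibitory-like. *WNT7B* had another order than in mouse. It was at 51.9 (34.5 to 75.0) and 26.5 (18.3 to 37.3) CPM in RG-like cells, 25.8 (19.7 to 33.3) and 38.2 (34.2 to 42.5) CPM in deep layer PyN-like cells, and 8.05 (6.61 to 9.71) and 3.59 (2.89 to 4.41) CPM in upper layer PyN-like cells. On the log2 scale *WNT7B* was 2.69 (2.03 to 3.30) and 2.89 (2.26 to 3.47) higher in RG-like than in upper layer PyN-like cells of the ferret sets, where mouse *Wnt7b* had -2.37 (-2.68 to -2.06) in control and -1.95 (-2.20 to -1.71) in Smo-cKO. Species, stage, sorting and gene models differ together here and cannot be told apart.

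*TCF7L2* was at 35.2 (21.2 to 55.0) and 70.8 (56.8 to 87.2) CPM in ferret RG-like cells, at 106 (60.5 to 172) and 130 (100.4 to 166) CPM in glial lineage-like cells, and at 1.18 and 1.42 CPM in upper layer PyN-like cells. In mouse upper layer PyN-like cells the gene stood at 36.3 and 32.7 CPM. *CTNNB1* was at 171 and 156 CPM in RG-like cells and highest in vascular-like cells, at 484 and 434 CPM. *LEF1*, *NKD1* and *AXIN2* were again highest in vascular-like cells, 94 and 88 in number. *LEF1* stood at 385 (335 to 440) and 491 (433 to 555) CPM there and at 7.41 and 7.24 CPM in RG-like cells, from 4 and 9 UMIs. *NKD1* had 92.6 and 167 CPM in vascular-like cells, and 0 and 2 UMIs in RG-like cells, where a count of 0 in 177 cells of median depth 2730 UMIs allows a share of cells with a UMI of up to 1.69% (3 cells of the total). This limits detection at this depth, not expression. *AXIN2* had 23.2 and 51.2 CPM in vascular-like cells and 6 UMIs in the RG-like cells of each set, and its intervals for these classes overlapped in set 1.

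**Figure D4:**
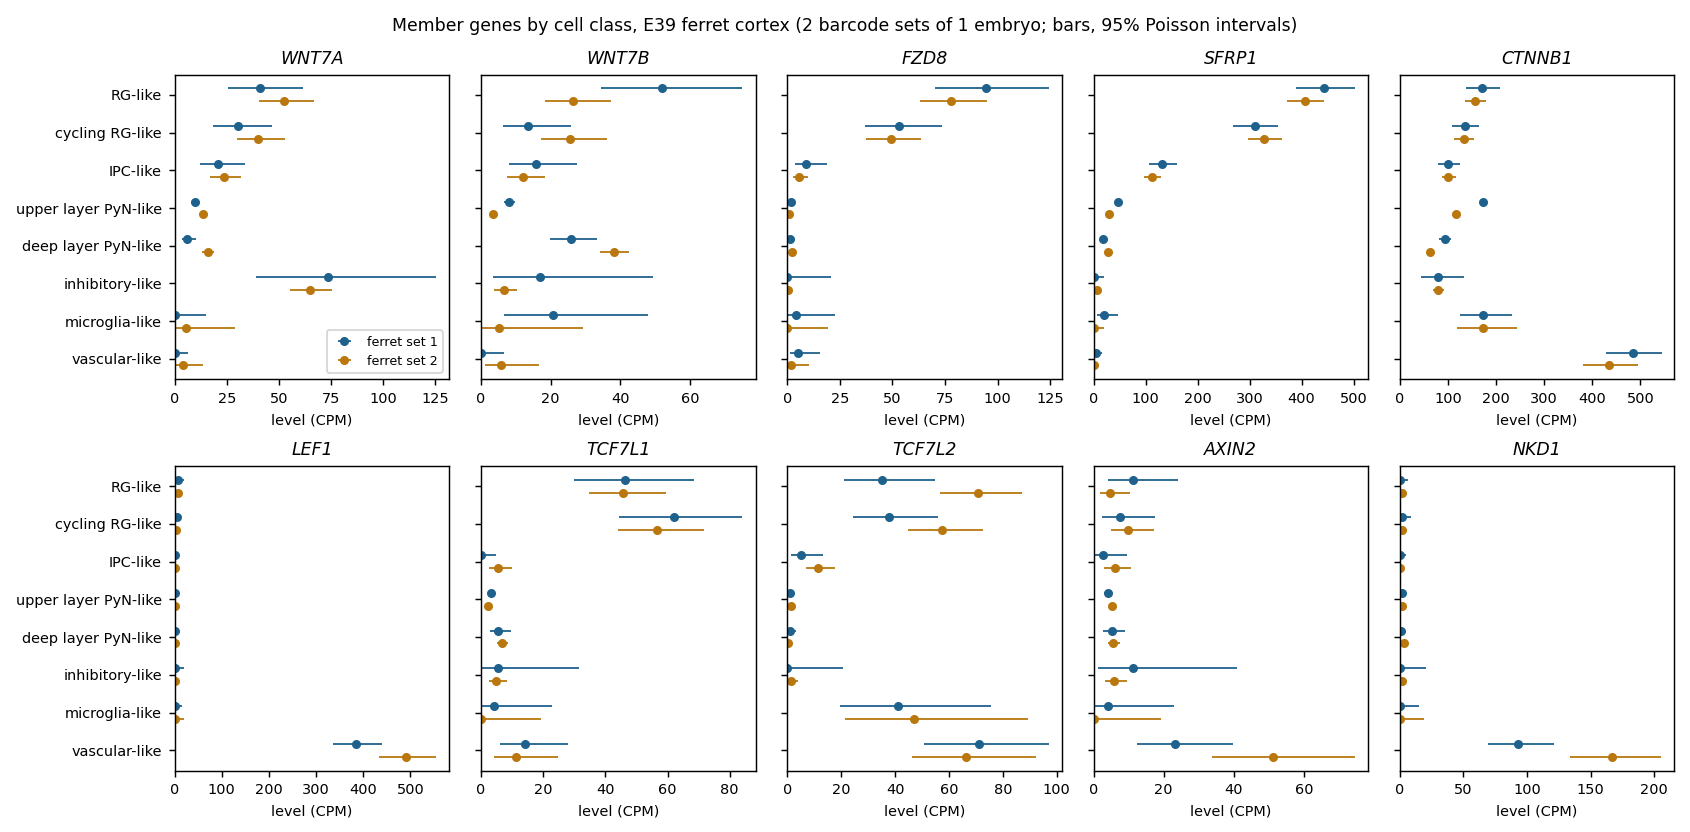
Level of each gene in CPM (horizontal axes, linear from 0) in 8 cell classes of the E39 ferret cortex, for the 2 barcode sets of 1 embryo (blue and brown), with bars for 95% Poisson intervals. *FZD8*, *SFRP1* and *TCF7L1* lie highest in RG-like classes, *WNT7B* in RG-like and deep layer PyN-like cells, and *LEF1*, *AXIN2* and *NKD1* in vascular-like cells.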

How the data were processed

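The authors processed 10x Genomics droplet reads with Cell Ranger and deposited raw UMI counts per gene and cell, 1 table for mouse and 1 for ferret. Per the labels' processing notes the mouse build was mm10, and the ferret build is not given in the sources used here. Depth was 52287727 UMIs for control (10524 cells), 43283675 for Smo-cKO (7596 cells), and 30574227 and 56361053 for the ferret sets (10190 and 13292 cells, with 38 shared barcodes).

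Cells with 750 to 5000 genes and under 10% mitochondrial UMIs were kept, as the study states, which left 10498, 7209, 10185 and 13052 cells. Classes came from marker lists of 8 genes. No doublet caller was run, so a doublet of 2 classes stays in the class with more markers. Counts were summed per class and library and given as CPM with exact Poisson intervals, their ratios with exact conditional binomial intervals, shares with exact Clopper-Pearson intervals (a share of 0 with a limit of 3 cells), and differences of shares with Newcombe intervals (python 3.11.15, numpy 2.4.6, scipy 1.17.1). A ratio was counted past the line at 1.5-fold with at least 20 UMIs over both libraries. Levels were compared between classes for 1 gene at a time, since UMIs are not scaled for transcript length. The ratio and its interval were run on simulated Poisson counts, the model that the interval assumes. That checks the calculation only, since spread between cells or embryos was not simulated. Coordinates are those of GENCODE vM21 (GRCm38).

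All 10 genes were named. Of the pathway list, genes past the line with an interval that excludes 1 and the 2 most abundant of each role were named. Genes of like pattern were the 3 with the highest r, and genes richer in cells with *Lef1* or *Axin2* the 5 with the highest control ratio and at least 20 UMIs. *Fzd6*, *Notum* and the other pathway genes counted with *Lef1*, *Dmrt3*, *Zic1* and *Zic4* were named there after their values were seen. The 10 genes and the lists were chosen with earlier results of these data known. The alternatives were a stricter gate, other sets of cells, other scaling, thinning and other count minimums.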

Additional observations from a re-analysis of the deposited data

Results flagged for a closer look

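Between cell classes, the Smo-cKO over control ratio of some genes differed from that in RG-like cells by at least 1.5-fold with a counting interval that excludes 1. With 1 library per genotype this interval holds counting error only and the difference between embryos was not tested. For *Nkd1* the ratio divided by that in RG-like cells was 3.17 (1.99 to 5.05) in IPC-like cells, 2.29 (1.36 to 3.89) in upper layer PyN-like cells and 3.33 (1.28 to 9.47) in other PyN-like cells. For *Lef1* it was 0.279 (0.147 to 0.519) in vascular-like cells. For *Tcf7l2* it was 5.05 (2.29 to 11.98) in glial lineage-like cells, where 10 UMIs in 52 control cells stood against 23 UMIs in 16 Smo-cKO cells, and 0.596 (0.368 to 0.943) in other PyN-like cells. For *Wnt7b* it was 0.411 (0.188 to 0.877) in deep layer PyN-like cells, from 21 and 15 UMIs. For *Sfrp1* it was 0.357 (0.133 to 0.828) in glial lineage-like cells, from 31 and 7 UMIs. In inhibitory-like cells it was 0.492 (0.290 to 0.834), from 32 and 31 UMIs. For these *Wnt7b* and *Sfrp1* values, the Smo-cKO over control ratio within the class itself had an interval that includes 1.

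Cells that no class took, 1630 in control and 998 in Smo-cKO, were outside the comparisons above. The share of all genes past the line was not counted in these cells, so values are given gene by gene only. The ratio was 2.91 (1.44 to 6.20) for *Lef1* and 2.06 (1.47 to 2.89) for *Nkd1*, both past 1.5-fold. It was 1.47 (1.21 to 1.78) for *Wnt7b* and 1.27 (1.16 to 1.38) for *Sfrp1*, both under 1.5-fold. In the same cells *Tcf7l2* was lower in Smo-cKO, with a ratio of 0.698 (0.555 to 0.873), and the other 4 genes with at least 20 UMIs had intervals that include 1.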

How the results depend on the processing

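Of 386 values recomputed under an alternative, 358 stayed within the main interval, or within 1.5 times a count. The direction of a ratio or difference was checked only where its main interval excluded no change, so some of the 358 may have changed sign. No paired analysis was possible because each genotype had 1 library and the ferret sets came from 1 embryo, which also left no replicate to leave out. Alternatives for IPC-like and upper layer PyN-like cells, and those leaving out cells with microglia or vascular markers, were chosen after seeing the data. The cause of a change below was not tested.

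The log2 ratio of *Fzd8* in RG-like cells went from -0.35 to -0.66 when thinned to 2900 UMIs, to -0.12 with cycling cells and to -0.57 without cells with a vascular marker. That of *Sfrp1* went from 0.29 to 0.35 with cycling cells, and that of *Lef1* in upper layer PyN-like cells from 1.48 to 0.53 when thinned. The count of the 10 genes 1.5-fold higher went from 2 to 1 with 4 markers and to 1 with a lead of 2, and the count lower from 0 to 1 when thinned. The count of pathway genes lower went from 3 to 1 at 50 UMIs and to 8 with no minimum. The share of all genes past the line was not counted under these alternatives. These changed counts therefore have no background beside them and are not read as results about the genes.

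Differences in the share of RG-like cells, in percentage points, changed sign at equal depth for *Ctnnb1* (4.42 to -5.81), *Tcf7l1* (2.24 to -0.62), *Tcf7l2* (4.18 to -2.27), *Fzd8* (2.02 to -3.15) and *Nkd1* (0.935 to -0.367), the last 2 from intervals that include 0. At equal depth they were also 0.398 for *Wnt7a*, 1.31 for *Wnt7b*, 2.05 for *Lef1* and 0.256 for *Axin2*. With at least 2 UMIs per cell they were 0.379 for *Wnt7a*, 1.47 for *Wnt7b*, 14.0 for *Sfrp1* and 0.382 for *Lef1*.

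With a lead of 2 markers the log2 ratio of RG-like over upper layer PyN-like cells was 2.35 for *Sfrp1* and -0.54 for *Ctnnb1* in Smo-cKO, 3.46 for *SFRP1* in ferret set 1 and 6.26 for *TCF7L2* in set 2. With 4 markers *SFRP1* was at 504 CPM in RG-like cells of set 1.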
